A study of Mus musculus with 8 samples.

Results

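The enzymes that methylate histone H3 at lysine 36 are themselves encoded by transcribed genes, and the H3K36me3 peaks over 7 such genes are described here: Setd2, Nsd1, Nsd2, Nsd3, Ash1l, Smyd2 and Setmar. They were chosen by name, and all 7 were found among 21887 protein-coding genes of the RefSeq annotation on chromosomes 1 to 19, X and Y (GRCm38.p6). The data come from H3K36me3 chromatin immunoprecipitation and sequencing of cultured mouse bone marrow stromal cells. All cells came from Setd2 fl/fl mice of the C57BL/6J strain and were used at passage 2. The KO cells had received a lentivirus expressing Cre recombinase, which removes the floxed part of Setd2, and the WT cells a lentivirus expressing GFP. Both were kept in puromycin at 2 µg/ml for 4 days, so every library stands for a transduced and selected cell pool and not for a clone. All samples were fixed in 1% formaldehyde for 10 min. Each genotype had 2 H3K36me3 libraries, 1 Input library (chromatin without antibody) and 1 IgG library (a non-specific antibody), and the authors called peaks in each H3K36me3 library against both controls of its own genotype. Whether the 2 libraries of a genotype stem from different cultures is not stated in the labels, so every p-value below reflects only how far these samples spread, and that spread may be technical.

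H3K36 can be mono-, di- or trimethylated, and different enzymes write these states. Setd2 travels with elongating RNA polymerase II and is known as the main writer of the trimethyl state over the bodies of transcribed genes. Nsd1, Nsd2, Nsd3 and Ash1l write the mono- and dimethyl states, which are found both in genes and between them. Smyd2 and Setmar are SET domain proteins to which H3K36 dimethylation has been attributed, and both also act on other proteins. Peaks of the trimethyl mark over a gene say nothing of the activity of the enzyme that the gene encodes.

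Transcription starts from RefSeq were at hand for 3 of the 7 genes, Setd2, Smyd2 and Setmar, and the windows from 250 bases before to 50 bases after each start are shown here because the place of the peaks was measured from them. The sequences (RefSeq, GRCm38.p6) read 5′ to 3′ in the direction of the gene, and capitals mark every CG dinucleotide. The windows are chr9:110532347-110532646 on the plus strand for Setd2, chr1:189922242-189922541 on the minus strand for Smyd2 and chr6:108064795-108065094 on the plus strand for Setmar.
Setd2: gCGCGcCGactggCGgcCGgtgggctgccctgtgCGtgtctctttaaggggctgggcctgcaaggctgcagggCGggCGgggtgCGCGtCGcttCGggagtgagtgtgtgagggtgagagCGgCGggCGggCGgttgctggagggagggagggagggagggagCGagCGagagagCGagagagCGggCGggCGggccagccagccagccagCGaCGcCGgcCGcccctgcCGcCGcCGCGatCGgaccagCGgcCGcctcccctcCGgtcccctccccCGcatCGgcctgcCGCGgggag
Smyd2: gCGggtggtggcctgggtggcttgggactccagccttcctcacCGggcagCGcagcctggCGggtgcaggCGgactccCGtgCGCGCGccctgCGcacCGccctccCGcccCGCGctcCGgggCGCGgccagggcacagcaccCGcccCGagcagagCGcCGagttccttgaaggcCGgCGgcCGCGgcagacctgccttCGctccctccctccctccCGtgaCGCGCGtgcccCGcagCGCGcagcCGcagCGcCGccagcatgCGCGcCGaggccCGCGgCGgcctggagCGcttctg
Setmar: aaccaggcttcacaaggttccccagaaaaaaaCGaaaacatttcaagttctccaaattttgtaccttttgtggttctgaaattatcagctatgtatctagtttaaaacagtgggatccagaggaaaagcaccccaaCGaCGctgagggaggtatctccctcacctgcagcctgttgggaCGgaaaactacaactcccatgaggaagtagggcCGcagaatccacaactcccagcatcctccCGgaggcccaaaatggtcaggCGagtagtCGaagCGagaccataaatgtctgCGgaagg
CG, which reads the same on both strands, occurred 38 times in the window of Setd2, 43 times in that of Smyd2 and 10 times in that of Setmar. Over 11053 windows of the same length in genes that entered the test below, the median was 20 and 98.7% held at least 1. None of the 4 libraries had a peak base in any of these 3 windows, nor within 1 kb on either side of the 3 starts. Peaks in such windows were rare in all libraries, at 1.20% and 1.21% of the 11053 windows in KO and 5.09% and 4.80% in WT.

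The peaks of the whole series differed in the same direction as those of the 7 genes. Peaks called against Input covered 71.7 and 94.4 Mb of the genome in KO and 243 and 235 Mb in WT. The read depth behind the lists is unknown, and fewer cells with the mark and less of the mark per cell cannot be told apart in such pools. Of 11 stromal marker genes, 8 had a mean WT coverage of at least 10%. Col1a1, the main collagen of bone matrix, had 73.3% and 64.3% in WT. Lepr went the other way, with 4.02% and 3.66% in KO, against 3.33% and 0.812% in WT. Thy1 had no WT peak, and Nt5e also stayed under the level of 10%. None of 4 endothelial and 3 of 6 haematopoietic markers reached this level, namely Itgam with 23.9% and 21.7% in WT, Adgre1 with 18.6% and 17.3%, and Ptprc with 15.0% and 14.2%, genes of myeloid cells, macrophages and blood cells at large. The median over the whole list was 0% and 2.05% in KO and 43.4% and 37.5% in WT for the stromal markers. For the haematopoietic ones it was 2.40% and 4.15% in KO and 7.50% and 12.3% in WT. The endothelial list went the other way, with 5.19% and 7.17% in KO and 4.25% and 1.40% in WT. The part of other cell types in the results was not tested.

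Setd2, the deleted gene, spans 86134 bp on chromosome 9 from 110532500 to 110618633. Peaks covered 0.690% and 1.70% of this span in the 2 KO libraries, against 66.4% and 60.5% in the 2 WT libraries. The groups did not overlap. The mean was 1.20% ± 0.716 in KO and 63.4% ± 4.19 in WT (SD, n = 2 each), a difference of -62.2 percentage points (SE 2.94, limma adjusted p = 0.000259). Peaks of a histone mark over the gene do not measure the loss of its floxed exons, and the deletion was not checked in this way.

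The 3 NSD genes encode closely related writers of the dimethyl state. Nsd1 (chromosome 13, 55209782 to 55318325), best known for mutations in a human overgrowth syndrome, had the highest WT coverage of all 7 genes. Its coverage was 0.645% and 1.24% in KO, against 71.1% and 68.9% in WT, a difference of -69.1 points (SE 2.08, limma adjusted p = 0.000211). Nsd3 (chromosome 8, 25601601 to 25719667), whose short isoform lacks the catalytic domain, had 2.11% and 2.61% in KO, against 58.1% and 53.7% in WT. Its difference was -53.5 points (SE 2.52, limma adjusted p = 0.000259). Nsd2 (chromosome 5, 33820676 to 33897966), which human myeloma cells overexpress after a translocation, had a lower WT level and the highest KO level of the 7. Peaks covered 4.25% and 3.52% of Nsd2 in KO, against 44.6% and 36.6% in WT, a difference of -36.7 points (SE 3.50, limma adjusted p = 0.00127). In each of the 3 NSD genes both KO libraries lay far below both WT libraries. Nsd2 shares 5214 bp of its span with the protein-coding genes Gm52782 and Nelfa, and without these bases its coverage was 4.55% and 3.78% in KO, against 47.7% and 39.3% in WT.

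Ash1l (chromosome 3, 88950414 to 89079375) is the mammalian counterpart of a Trithorax group protein of Drosophila and is the longest of the 7 genes at 128962 bp. It had 1.19% and 3.69% in KO, against 58.5% and 54.7% in WT, so the KO libraries differed among themselves but not by enough to approach WT. The difference was -54.2 points (SE 2.57, limma adjusted p = 0.00026). Smyd2 (chromosome 1, 189880492 to 189922495), a SET and MYND domain enzyme that also methylates p53, had 2.43% and 1.45% in KO, against 50.0% and 51.1% in WT. Its difference was -48.6 points (SE 2.00, limma adjusted p = 0.000215), and its WT libraries lay closest together of all 7 genes.

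Setmar (chromosome 6, 108065045 to 108077127) is the shortest of the 7 genes at 12083 bp. In human, but not in mouse, its SET domain is fused to a mariner transposase. It had no peak base in either KO library, against 46.3% and 25.2% in WT. These WT libraries lay farther apart than those of any other of the 7 genes, and the difference of -35.8 points had an SE of 8.10 (limma adjusted p = 0.0165). This call was lost without KO library 1 (limma adjusted p = 0.0998), without KO library 2 (limma adjusted p = 0.0951) and with no filter on mean coverage (limma adjusted p = 0.0631), although the direction did not change.

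**Figure D1:**
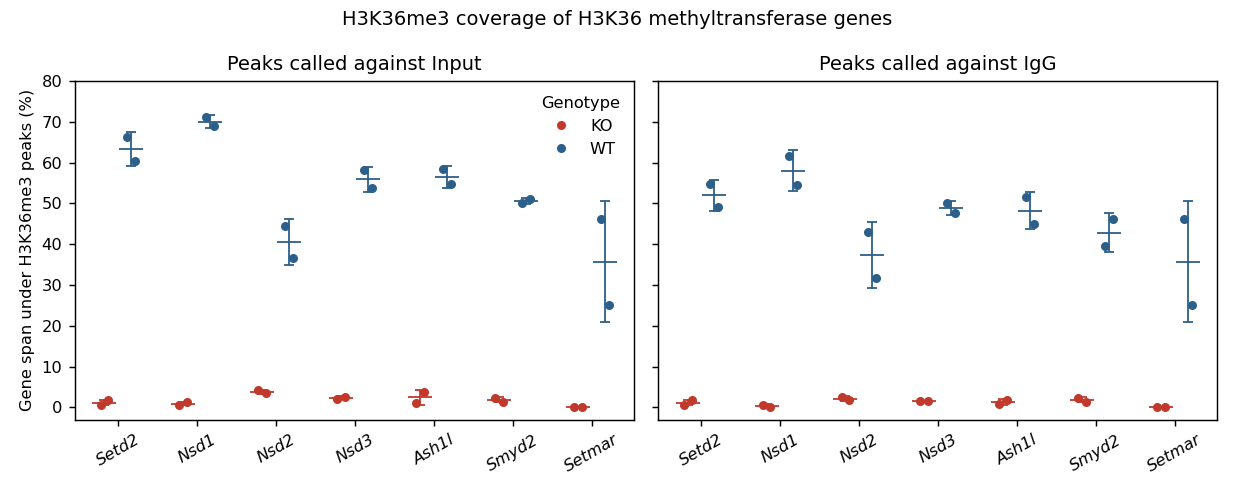
Percent of each gene's span under H3K36me3 peaks called against Input (left) and against IgG (right). Points are libraries, KO in red and WT in blue, with the mean as a bar and the SD as whiskers (n = 2). All KO points lie below 5% and all WT points above 25%.

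In WT the order of levels was Nsd1, Setd2, Ash1l, Nsd3, Smyd2, Nsd2 and Setmar. The 2 libraries of Ash1l overlapped those of Nsd3, and those of Nsd2 lay within the range of Setmar, so these neighbours in the order did not differ beyond their spread. The other neighbouring pairs had WT values that did not overlap. In KO the order was Nsd2, Ash1l, Nsd3, Smyd2, Setd2, Nsd1 and Setmar, and every gene overlapped its neighbour in this order except Nsd1 and Setmar. The mean KO coverage was 9.56% of the mean WT coverage in Nsd2, between 3.83% and 4.32% in Ash1l, Nsd3 and Smyd2, 1.88% in Setd2 and 1.35% in Nsd1. Setd2 and Nsd1 had the highest WT means and the lowest KO means above 0. Their KO libraries overlapped those of Ash1l, and those of Setd2 also overlapped those of Smyd2, so these KO ranks were not resolved.

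The genes tested were the 10809 protein-coding genes whose coverage averaged at least 10% over the 4 libraries, and a gene was called at a limma adjusted p under 0.05. All 7 genes were called lower in KO, as were 92.6% of the genes tested, while 0.555% were called higher. The count thus shows nothing particular to these genes. The 7 reached the minimum through WT alone, with at most 4.25% in any KO library, so a lower call was favoured in advance. With no minimum, 10194 of 21887 genes were called lower and 641 higher, and 6 of the 7 were among those lower. Both KO libraries lay below both WT libraries in all 7 genes and in 94.8% of the genes tested, but in 11896 of all 21887 genes. The median coverage of the 7 was 1.94% in KO and 55.9% in WT, beside 2.51% in KO and 50.6% in WT over the genes tested. The median difference was -53.5 points for the 7 genes, -47.7 points for the genes tested and -10.6 points for all protein-coding genes. Nsd1 had a WT coverage above that of 81.3% of the genes tested, Setd2 above 71.0%, and Setmar above 27.9%. When each value was divided by the share of the genome under peaks in the same list, on a log2 scale with 0.25 added, the median difference was -2.80 for the 7 genes and -2.77 for all genes tested. On that scale all 7 genes were called lower, as were 62.6% of the genes tested (0.897% higher), with values from -1.66 in Nsd2 to -4.05 in Setmar.

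**Figure D2:**
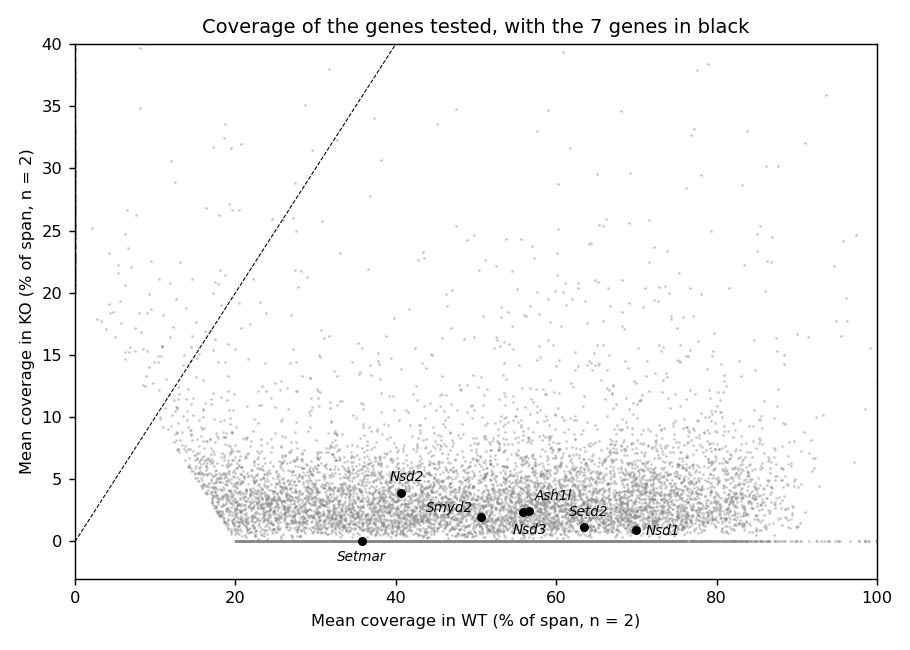
Mean coverage in KO (vertical axis, percent of span) against mean coverage in WT (horizontal axis, percent of span) for the 10809 genes tested, each a grey point, with the 7 genes in black. The dashed line marks equal coverage, and 67 genes with more than 40% in KO lie above the axis. The 7 genes sit between 0 and 5% in KO among the bulk of the genes tested.

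The number and width of peaks differed together with the covered share. Over the 573 kb of the 7 spans together, the KO libraries had 16 and 23 peaks, against 290 peaks in each WT library. Those peaks covered 9625 and 13986 bp in KO and 339473 and 313682 bp in WT. Setd2 had 1 and 3 peaks in KO, against 52 and 45 in WT. Nsd1 had 1 and 2 peaks in KO, against 60 and 61 in WT. Ash1l had 3 and 8 in KO, against 57 and 68 in WT, and Nsd3 had 4 and 5 in KO, against 61 and 62 in WT. In these 4 long genes a WT library held between 4.42 and 6.04 peaks per 10 kb, and a KO library between 0.0921 and 0.620. Nsd2 had 5 and 4 peaks in KO (0.647 and 0.518 per 10 kb), against 33 and 31 in WT (4.27 and 4.01 per 10 kb). Smyd2 had 2 and 1 in KO, against 21 in each WT library, and Setmar none in KO, against 6 and 2 in WT. With 2 libraries per genotype the exact two-sided permutation p cannot fall below 0.333, the value reached by the coverage of each of the 7 genes.

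Over the 7 genes, peaks above 1 kb were seen in WT alone. The KO peaks were 328 to 852 bp wide, and none exceeded 1 kb. All KO peaks in the genome had a median width of 566 and 568 bp, and their share above 1 kb was not counted. In WT, 122 and 117 peaks exceeded 1 kb, and 38 and 30 exceeded 2 kb. Peaks over 2 kb made up 13.1% and 10.3% of the WT peaks on the 7 genes, beside 8.61% and 7.57% of all WT peaks. Of all KO peaks in the genome, 0.0742% and 0.0690% exceeded 2 kb, so their absence among the 39 KO peaks here is nothing particular to these genes. The widest peak spanned 7296 bp within Nsd1 (chr13:55238124-55245419, WT library 1), and the next was 6597 bp within Ash1l (chr3:89034268-89040864, WT library 1). Nsd3 had a peak of 5016 bp (chr8:25681390-25686405) in WT library 2. On Setd2 the widest were 4584 bp in WT library 1 (chr9:110617057-110621640), which ran past the end of the gene, and 4493 bp in WT library 2 (chr9:110546918-110551410). The authors' score of a peak, whose scale is not stated, was used to describe each list and, in alternative fits, to filter peaks. It was at most 75.3 over these genes in KO, while 79 and 86 WT peaks scored 100 or more.

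**Figure D3:**
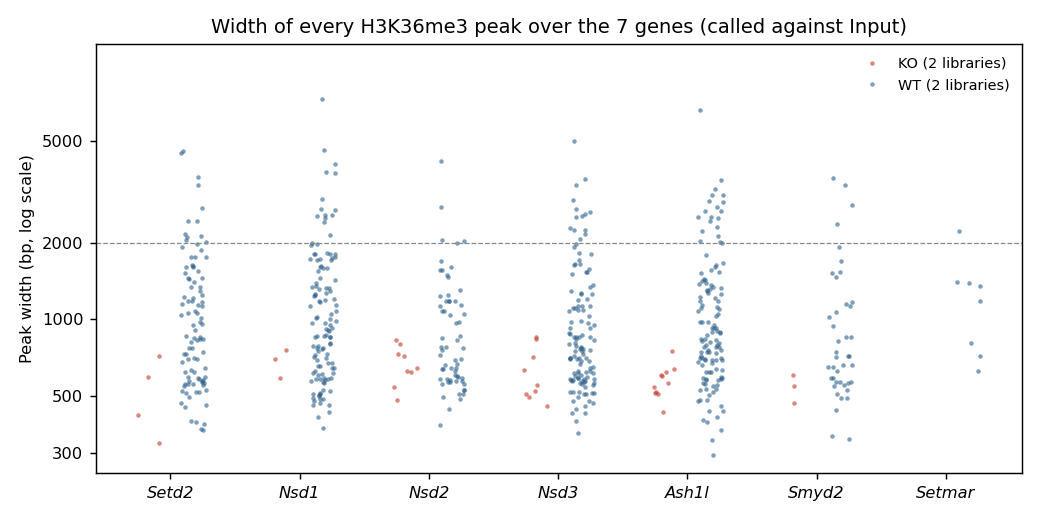
Width of every peak over the 7 genes (bp, log axis), lists against Input, KO in red and WT in blue, both libraries pooled for display. The dashed line marks 2 kb. KO peaks lie between 328 and 852 bp, whereas WT peaks reach 7296 bp.

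Along the genes the WT peaks were spread unevenly. Each span was cut into 10 equal segments, numbered from the edge with the lower coordinate. In the 2 genes on the plus strand with a known start, segment 1 had the lowest mean WT coverage (in Setmar together with segment 2), at 31.7% and 22.8% in Setd2 and 0% in both WT libraries in Setmar. Segment 10 had 70.8% and 77.8% in Setd2 and 93.4% and 100% in Setmar. Smyd2, on the minus strand, had its lowest mean in segment 10, with 69.1% and 70.6% in segment 1 and 0% and 11.7% in segment 10, which holds its start. Mean WT coverage was thus lowest at the start in all 3 genes whose start was known.

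From the start of Setd2 the nearest downstream peak lay 14884 and 14954 bp away in KO and 3147 and 3036 bp in WT. With 1 and 3 peaks on Setd2 in KO, against 52 and 45 in WT, a longer distance in KO was favoured in advance. For Smyd2 that distance was 4212 and 8237 bp in KO and 7229 and 1548 bp in WT, and the groups overlapped. For Setmar no KO peak lay in the gene, and the distance was 2728 and 7941 bp in WT. The strand of the other 4 genes was not used here. In these, too, segment 1 had the lowest mean WT coverage, at 32.4% and 33.8% in Nsd1, 0% in both libraries in Nsd2, 6.50% and 5.66% in Nsd3, and 0% and 4.49% in Ash1l. Nsd1, Nsd2 and Ash1l had their highest WT mean in segment 10. It was covered to 96.4% and 80.2% in Nsd1, to 95.6% and 68.5% in Nsd2 and to 92.7% and 84.3% in Ash1l. The longest stretch free of peaks from either WT library lay at the low edge of Ash1l (11539 bp), Nsd3 (9372 bp), Nsd2 (9280 bp), Nsd1 (3462 bp), Setd2 (3133 bp) and Setmar (2728 bp). KO coverage reached at most 19.4% in any segment of any of the 7 genes, in segment 8 of Nsd2.

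**Figure D4:**
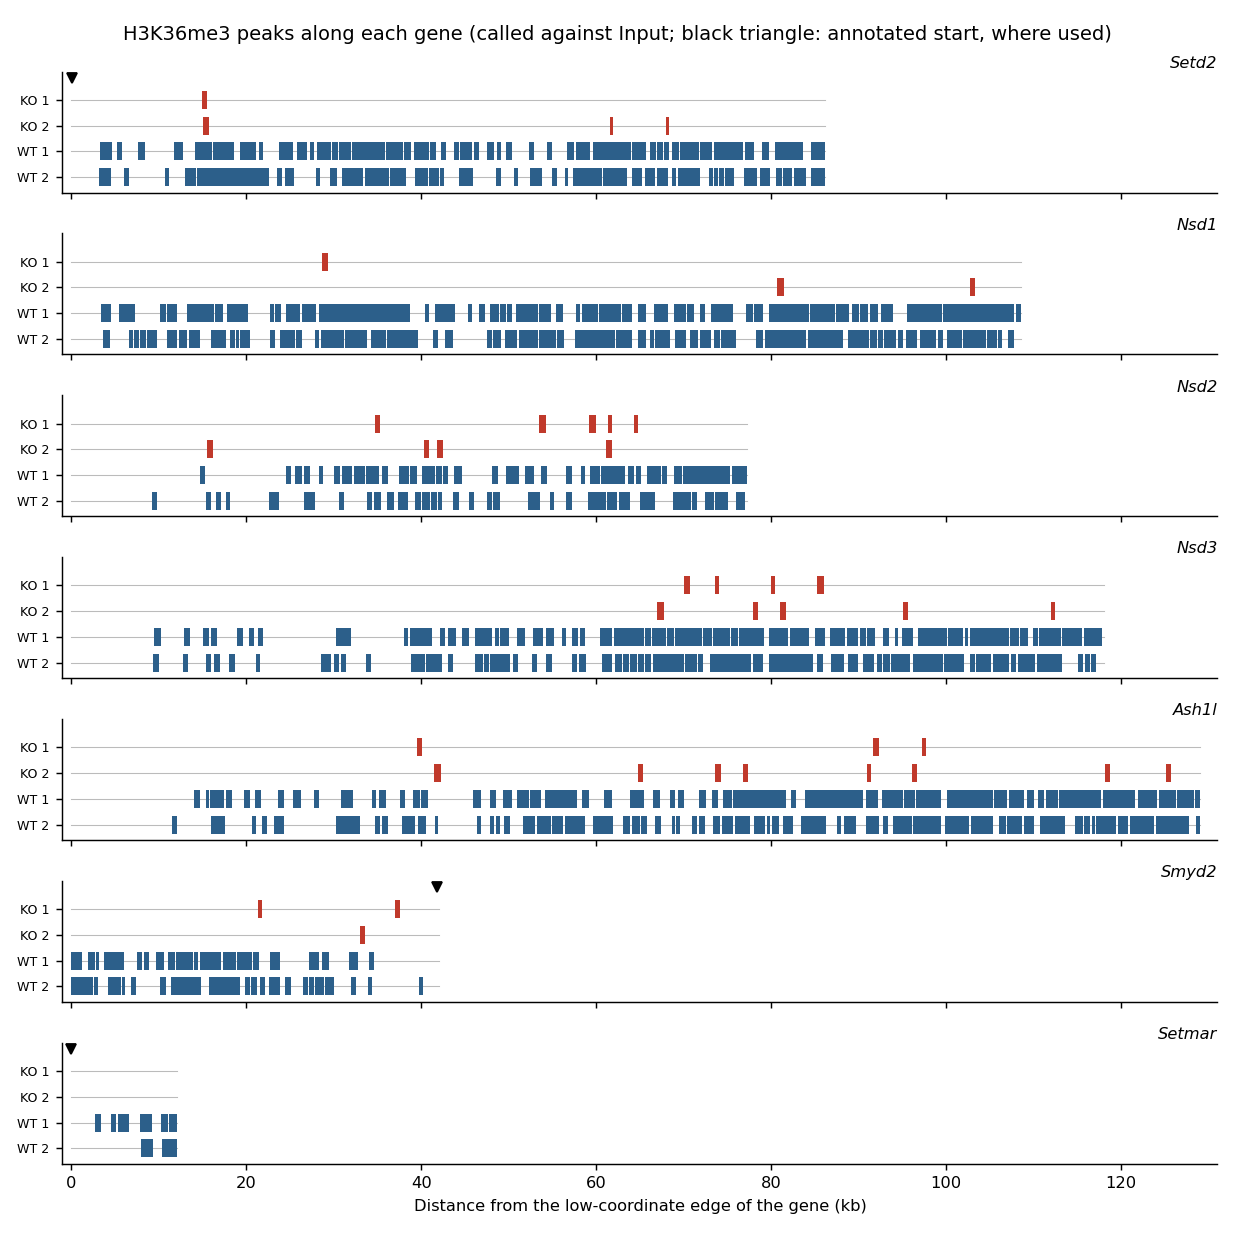
Peaks called against Input along each gene, drawn to scale as distance from the low-coordinate edge (kb), with 1 row per library (KO in red above WT in blue). Black triangles mark the annotated start of Setd2, Smyd2 and Setmar. KO rows hold 0 to 8 short peaks per gene, and WT rows are dense away from the low edge (in Smyd2, away from the high edge).

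The positions of the peaks were then compared between libraries. In the 7 spans together, 61.1% of the bases under a peak in either WT library were under a peak in both, from 41.4% in Nsd2 to 66.7% in Nsd1. The KO libraries shared 1015 bp of the 22596 bp under a KO peak, in only 2 places among these 7 genes. A stretch of 524 bp lay in Setd2 (chr9:110547551-110548074), 15051 bp from the low edge, and a stretch of 491 bp lay in Nsd2 (chr5:33881982-33882472). Both were fully covered in both WT libraries. The stretch in Setd2 was part of the sole peak of KO library 1 on this gene, and it fell inside the 4493 bp peak of WT library 2.

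The KO peaks over the 7 genes were set against the WT peaks. Of the 39 KO peaks, 37 touched a peak of at least 1 WT library by 1 bp or more, and 34 touched peaks of both. With 70.8% of the spans under WT peaks, most KO peaks were likely to touch one wherever they lay. The share over all KO peaks in the genome was not counted, so these counts show nothing particular to the 7 genes. Of the bases under KO peaks, 89.6% were under a peak of either WT library, which together covered 70.8% of the spans. Bases covered in both WT libraries made up 43.2% of the spans and held 73.3% of the KO bases. The 2 KO peaks away from WT peaks were both in Smyd2, at chr1:189917530-189918079 in KO library 1 and chr1:189913448-189914054 in KO library 2. All KO bases in Setd2, Nsd1 and Nsd3 lay on bases covered in at least 1 WT library, as did 88.2% in Nsd2 and 92.7% in Ash1l, but 24.3% in Smyd2.

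The sequence around the genes was used to ask where the peaks ended. In the 20 kb beyond the low edge of Nsd1, where no other protein-coding gene lies, coverage was 4.28% and 8.36% in KO and 2.66% and 0% in WT. Both KO libraries lay above both WT libraries there, but in none of the other flanks without such genes given below. How often this occurs in such regions of the genome was not counted. On the low side of Nsd2, likewise free of other genes of this kind, it was 3.13% and 6.99% in KO and 5.86% and 7.98% in WT. The 20 kb before the start of Smyd2, also free of other protein-coding genes, had 0% and 2.75% in KO and 4.42% and 0% in WT. Around Setmar, the 20 kb on the low side had 0% and 7.32% in KO and 0% in both WT libraries, and on the high side 2.68% and 2.26% in KO and 5.11% and 5.30% in WT. In these 5 flanks WT coverage was at most 7.98%, far below that of the adjoining gene. On the high side of Setd2, which holds Nradd and part of Nbeal2, coverage was 10.6% and 13.4% in KO and 71.8% and 69.1% in WT. There both KO libraries had more coverage than over Setd2 itself. The same held on the low side of Setd2 (1.58% and 14.2% in KO). It also held on a single side of Nsd1, Nsd2, Nsd3 and Setmar, but on neither side of Ash1l or Smyd2.

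The nearest protein-coding gene on either side of each of the 7 genes was taken as its neighbour. All 11 of the 14 neighbours that could be tested were called lower in KO, beside the 92.6% of all tested genes. They reached the minimum mainly through WT coverage, so a lower call was favoured in advance, and the count shows nothing particular to the neighbours. Nradd, next to Setd2, had 0% and 15.1% in KO, against 65.4% and 59.6% in WT (difference -55.0 points, limma adjusted p = 0.00216). The call of Nradd was lost on the log2 scale (limma adjusted p = 0.105), scaled to genome coverage (0.242), without WT library 1 (0.124) and without WT library 2 (0.111). Kif9, a kinesin gene on the other side of Setd2, had 9.03% and 10.7% in KO, against 18.0% and 26.5% in WT (difference -12.4 points, limma adjusted p = 0.0384). Scaled to genome coverage the difference of Kif9 was 0.35 on the log2 scale (limma adjusted p = 0.309). Its call was also lost without KO library 1 (limma adjusted p = 0.174), without KO library 2 (0.137), without WT library 2 (0.0872) and with no filter (0.105). Letm1, a mitochondrial ion transporter gene beside Nsd2, had 9.02% and 4.08% in KO, against 81.2% and 81.0% in WT (difference -74.5 points, limma adjusted p = 0.000211), a call lost when scaled to genome coverage (-2.05 on the log2 scale, limma adjusted p = 0.0606). Fgfr4, Prox1 and Lrrn1, beside Nsd1, Smyd2 and Setmar, had at most 7.23% in any library and were not tested.

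The lists called against IgG were read as a check. All 7 genes were again called lower in KO, as were 91.4% of the 9635 genes tested in those lists, with 0.218% called higher. The same minimum applied, so a lower call was again favoured in advance. Setd2 had the same KO coverage as against Input, 0.690% and 1.70%, against 54.7% and 49.2% in WT. Nsd1 had 0.645% and 0% in KO, against 61.7% and 54.4% in WT, so 1 of its KO libraries lost both of its peaks. The values of Setmar did not change with the control. Of the 39 KO peaks over the 7 genes, 25 overlapped a peak in the IgG list of the same library. The largest limma adjusted p in these lists was 0.0218, for Setmar, and the others were between 0.000759 for Nsd3 and 0.00499 for Nsd2.

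Other genes of H3K36 methylation were counted in the same fit, beside the 92.6% of all tested genes that were called lower. Genes tested in this and the following lists reached the minimum mainly through WT coverage, so a lower call was favoured in advance. Of 7 genes for H3K36 demethylases, 6 were called lower and none higher, with a median of 1.22% in KO and 61.4% in WT. Kdm4a, which removes H3K36 and H3K9 trimethylation, had 1.32% and 5.05% in KO, against 86.6% and 86.9% in WT (difference -83.6 points, limma adjusted p = 0.000211). Kdm4b had the highest KO mean of this list, with 7.26% and 2.61% in KO, against 64.2% and 58.5% in WT (difference -56.4 points, limma adjusted p = 0.00038), a call lost when scaled to genome coverage (-2.06 on the log2 scale, limma adjusted p = 0.0798). Riox2, a ribosomal oxygenase gene, had no KO peak, against 69.2% and 64.4% in WT, and its call was lost with peaks scoring at least 100 (limma adjusted p = 0.102). Riox1 was the gene not called, with 0% in both KO libraries and 50.5% and 8.78% in WT (limma adjusted p = 0.148). It was picked out here after its values were seen.

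Of 15 genes for proteins that bind methylated H3K36 or act in complexes that do, 14 were tested and 13 called lower, with a median of 1.14% in KO and 57.2% in WT. Glyr1, a nucleosome-binding factor of transcribed chromatin, had 1.04% and 2.52% in KO, against 87.7% and 90.8% in WT. Brd1, a scaffold of histone acetyltransferase complexes, had 0% and 1.46% in KO, against 85.6% and 83.3% in WT. Dnmt3b, a DNA methyltransferase that reads H3K36me3 through its PWWP domain, had 4.79% and 2.98% in KO, against 23.5% and 28.1% in WT (difference -21.9 points, limma adjusted p = 0.00253), a call lost when scaled to genome coverage (-1.07 on the log2 scale, limma adjusted p = 0.125). Zcwpw1, known as a reader in meiosis, had 8.91% and 2.97% in KO, against 15.6% and 13.4% in WT, and was not called (difference -8.53 points, limma adjusted p = 0.0635). Phf19 was under the minimum for the test.

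The 10 genes for RNA polymerase II and for factors that work with Setd2 on it were all called lower, with a median of 1.46% in KO and 74.5% in WT. Supt6, an elongation factor that binds the polymerase and is needed for H3K36 trimethylation, had 3.68% and 2.69% in KO, against 84.1% and 87.3% in WT (difference -82.5 points, limma adjusted p = 0.000211). Ctr9, a scaffold of the PAF1 elongation complex, had 4.51% and 0% in KO, against 87.0% and 80.4% in WT, and its call was lost when scaled to genome coverage (-3.80 on the log2 scale, limma adjusted p = 0.0812). Polr2b, the second largest polymerase subunit, had 2.68% and 5.11% in KO, against 84.9% and 79.8% in WT.

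Among 21 further SET and SMYD domain genes, 18 were tested and all 18 called lower, with a median of 2.42% in KO and 60.3% in WT. Setd1a, a writer of H3K4 methylation, had no KO peak, against 89.6% and 91.3% in WT. Setdb1, a writer of H3K9 methylation, had 1.59% and 3.47% in KO, against 84.9% and 87.9% in WT. Prdm9, which trimethylates H3K36 and H3K4 in meiotic cells, had 4.43% and 10.6% in KO, against 29.1% and 26.1% in WT (difference -20.1 points, limma adjusted p = 0.00545). The call of Prdm9 was lost scaled to genome coverage (-0.43 on the log2 scale, limma adjusted p = 0.345), without WT library 1 (0.143) and without WT library 2 (0.122). Setd7, which methylates H3K4 and non-histone proteins, had 3.47% and 8.92% in KO, against 55.6% in each WT library. The 3 genes not tested were Smyd1, Smyd3 and Smyd4, relatives of Smyd2 named after their values were seen. Their WT coverage was at most 17.4% in any library. Smyd1, a muscle gene, had 2.53% and 4.77% in KO, against 1.37% and 0% in WT.

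The coverage pattern of Setd2 over the 4 libraries was compared with that of 10038 protein-coding genes of at least 20 kb, by Euclidean distance in percentage points. The nearest 3 were Sec14l1 (distance 1.28), Birc6 (1.33) and Rab7 (1.50). Birc6 had 0.648% and 1.60% in KO, against 65.8% and 61.6% in WT. Among the other 6 genes, those of at least 20 kb ranked from 791 for Nsd1 (distance 9.68) to 3352 for Nsd2 (distance 32.6), and Nsd1 was the nearest of them.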

How the data were processed

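For every H3K36me3 library the authors deposited 2 peak lists (8 in all), with the Input or IgG library of that genotype as control, per the labels. The submitters' processing notes name Bowtie2 and the build GRCm38. Peak names start with MACS. Versions and settings: not given in the sources used here. Each deposited peak has a score, whose scale is not stated. The lists hold no read counts, so depth is unknown. Peak number and width depend on it.

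Coverage was the percent of a gene's RefSeq span under peaks of at least 1 bp overlap. The percent values of KO and WT were compared by limma 3.58.1 (R 4.3.3, statmod 1.5.0, robust with a trend). The fit took in 10809 protein-coding genes averaging 10% or more across the 4 libraries, and p-values were adjusted over all of them (Benjamini-Hochberg, threshold 0.05). The step was tested on simulated data in which few genes changed and both groups had the WT spread. The KO values here lie near 0 in most genes, a setting which that test does not cover. Overlaps came from Python 3.11.15 with pandas 2.3.3, scipy 1.17.1 and numpy 2.4.6, and plots from matplotlib 3.10.9. Alternatives were the IgG lists, score minimums of 50 and 100, merging within 1 kb, log2 scales, no filter, plain limma, a replicate block and leaving out each library. The genes and lists were chosen with earlier results of these data known. Named beyond the 7 genes were their nearest neighbours, the 3 genes most like Setd2 and, per list, the 2 tested genes highest in WT and the 2 highest in KO. A merged peak annotation that the labels mention was not analysed here.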

Additional observations from a re-analysis of the deposited data

How the results depend on the processing

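Setd2, Nsd1, Nsd3, Ash1l and Smyd2 stayed lower in KO and past the threshold under all 13 alternatives, with limma adjusted p of at most 0.0243. Nsd2 did so under all 12 that gave it a value (adjusted p up to 0.0239). Nsd2 at a score of at least 100, and Setmar at 50 and at 100, fell under the minimum and gave no value. Setmar lost its call with no filter (-35.8 points, limma adjusted p = 0.0631). Leaving out 1 library at a time gave Setmar -46.3 to -25.2 points, with limma adjusted p from 2.47e-05 to 0.0998. The smallest values came without a WT library, where the lone WT library is assumed to vary like the KO pair, which was at 0. The difference in peaks summed over the 7 genes was -270.5, and became -234 against IgG, -152 at a score of at least 50 and -48 with merging, and -274 to -267 with 1 library left out. All genes past the threshold numbered 10073, and 5187 at a score of at least 100. Genes called higher in KO numbered 60, but 0 at that score, 12 at a score of at least 50, 21 against IgG, 641 with no filter, 182 and 144 without KO library 1 or 2, and 13 and 15 without WT library 1 or 2. Kif9 turned to 0.35 (log2) when scaled to genome coverage. Of 345 alternative values for 28 other named genes, 320 stayed called or stayed uncalled, 24 lost the call and 1, that of Kif9, reversed. Zcwpw1, which was called in neither fit, also changed sign, to 0.083 (log2), when scaled to genome coverage. The shared replicate numbers do not pair the libraries by any label, and the deviations of same-numbered libraries had a correlation of -0.00333 over 10809 genes. The replicate block called 9993 genes lower and 60 higher, with all 7 genes among those lower. The unknown depth limits every level and the count of KO peaks.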
